A study of Mus musculus with 30 samples.

Results

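The mesenchymal patterning factors described here are 10 transcription factor genes, most known for giving connective tissue its position and character in the embryo. They are Shox2, Msx1, Msx2, Prrx1, Prrx2, Twist1, Twist2, Snai2, Tbx15 and En2, and each was found once by its symbol among the 38561 genes of the deposited count table. All 10 passed the filter on low counts, which left 14438 genes for testing. The 10 were chosen by name, with no contrast or threshold, but they were listed with earlier results of these data in view. Their fold changes and adjusted p-values are therefore a description of these libraries and no independent support for a pattern.

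RNA came from cultured stromal cells of the inguinal fat pad, labelled adipose-derived stem cells, that carried Sca-1 and CD34 and lacked CD31, CD45 and Ter119 at the sort, from male C57BL6/J mice at passage 2. The groups were aged obese mice (52 weeks, 6 libraries), aged lean mice (52 weeks, 8 libraries), young obese mice (20 weeks, 8 libraries) and young lean mice (20 weeks, 8 libraries), with 1 library from each mouse and no transgene or gene deletion in any group. Obese mice ate a lard-based diet with 60% of its energy from fat from weaning, and lean mice ate control chow. Aged obese mice had eaten that diet for longer than young obese mice, so age and time on the diet cannot be told apart between the obese groups. Of 12 aged obese mice bought, 8 were alive at 360 days, so this group holds survivors.

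Positional homeobox, T-box and basic helix-loop-helix factors set up limb, body wall and skin mesenchyme before birth. Fat depots keep a part of this code: Tbx15, Shox2 and En1 are known as genes of subcutaneous fat, while Wt1 and Tcf21 mark visceral stroma. Twist and Snail factors are best known for repressing cadherins as cells leave an epithelium, and several members (Prrx1, Msx2, Twist1, Shox2) are also known in mouse as brakes on adipocyte differentiation or on fat burning.

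Total counts in genes lay between 30597765 (young lean 26) and 47970233 (aged obese 16). Visceral and mesothelial markers Wt1, Tcf21, Upk3b and 5 others of 9 stayed below 1 CPM (counts scaled to library size) in every library. The same held for 6 of 10 endothelial, 6 of 10 immune, 9 of 10 epithelial and 7 of 7 erythroid markers. The remaining visceral and mesothelial marker, Krt19, was expressed and made up most of that list's sum. The median sum was 76.1 CPM in aged obese, 154 in aged lean, 168 in young obese and 162 CPM in young lean libraries. Some libraries of a group resembled each other far more than others. The chi-square statistic per gene ran from 6.795 (young obese 19 against 21) to 520 (aged obese 10 against 17). No pair agreed within sampling noise. Mice 18, 19, 20, 21 and 23 of the young obese group formed a close set, with every pairing at 23.7 or below. Numbers 1 and 2 of that group were also close, at 8.77, but lay at 167 to 219 from the mice of this set. Cell cycle transcripts, summed over 18 genes, reached 2010 CPM in aged obese 10 and 1400 CPM in aged obese 12, where the group's median was 521 CPM. Cd34, a sort marker, varied widely within groups, from 0.193 to 38.0 CPM in aged obese, 1.07 to 28.7 in aged lean, 0.912 to 27.9 in young obese and 4.80 to 22.6 CPM in young lean libraries.

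RefSeq promoters (build GRCm38.p6) were on hand for 7 members. The 250 bases before the start of 4 of them are shown because these genes moved in aged obese libraries or are the paralog of one that did, with each CG dinucleotide in capitals. Shox2 lies at chr3:66981772-66982021 (minus strand), Msx1 at chr5:37824586-37824835 (minus strand), Twist1 at chr12:33957421-33957670 (plus strand) and Twist2 at chr1:91801211-91801460 (plus strand).
Shox2: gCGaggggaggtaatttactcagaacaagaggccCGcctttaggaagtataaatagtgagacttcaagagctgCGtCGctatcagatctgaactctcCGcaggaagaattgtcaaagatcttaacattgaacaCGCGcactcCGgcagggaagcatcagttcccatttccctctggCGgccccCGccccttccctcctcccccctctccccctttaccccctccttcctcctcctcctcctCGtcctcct
Msx1: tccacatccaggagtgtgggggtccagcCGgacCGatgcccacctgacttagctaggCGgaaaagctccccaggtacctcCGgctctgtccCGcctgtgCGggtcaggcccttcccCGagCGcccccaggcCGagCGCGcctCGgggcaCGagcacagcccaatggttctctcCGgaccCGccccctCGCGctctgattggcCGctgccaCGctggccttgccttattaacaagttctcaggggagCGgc
Twist1: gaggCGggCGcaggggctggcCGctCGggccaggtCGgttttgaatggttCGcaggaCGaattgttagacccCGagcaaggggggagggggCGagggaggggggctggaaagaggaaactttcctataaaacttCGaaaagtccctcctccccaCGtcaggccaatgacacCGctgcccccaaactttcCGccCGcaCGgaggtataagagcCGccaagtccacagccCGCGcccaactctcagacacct
Twist2: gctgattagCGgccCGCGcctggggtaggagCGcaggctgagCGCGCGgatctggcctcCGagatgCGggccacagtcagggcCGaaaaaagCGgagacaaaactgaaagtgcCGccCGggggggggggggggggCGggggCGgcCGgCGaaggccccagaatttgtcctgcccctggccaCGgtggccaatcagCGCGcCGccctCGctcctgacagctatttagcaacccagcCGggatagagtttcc
All 4 stretches are rich in CG. Their observed over expected CG content was 0.63 for Shox2, 0.704 for Msx1, 0.74 for Twist1 and 0.788 for Twist2, which put Twist2 at percentile 80.1 and Shox2 at percentile 68.1 of 32851 promoters. Among the other 3 with an entry, Prrx2 had 0.686 and Msx2 0.676, and Prrx1 stood lowest with 0.321 (percentile 44.9). The E-box, the motif CANNTG that Twist and Snail factors can bind, was searched on both strands, where it reads the same. It occurs 1 time in the Msx1 and 1 time in the Msx2 stretch and 0 times in the other 5, whereas 66.2% of all promoters hold it. The Msx1 match is of the form CAGGTG on 1 of the strands, a form that 17.2% of promoters hold. A match is a description of letters and not a binding site.

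Measured per kilobase of exon, over all 30 libraries, Prrx1 was the most abundant member at 38.2 CPM per kilobase, followed by Twist1 at 36.04, Snai2 at 30.04, Prrx2 at 24.4, Tbx15 at 23.9 and Shox2 at 13.8. Twist2 came next at 9.56, and Msx1 at 1.38, Msx2 at 0.599 and En2 at 0.172 CPM per kilobase closed the order. Prrx1 stood at percentile 92.0 of the tested genes with a known length and En2 at percentile 8.06. The spread between mice of a group differed as widely as the levels. Twist1 varied least, with an SD of 0.181 on the log2 scale within groups (percentile 13.7 of all tested genes), and En2 most, with 0.724 (percentile 88.1), while the median gene had 0.33. Twist2, Msx1 and Msx2 also lay above that median, at 0.538, 0.518 and 0.606.

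**Figure D1:**
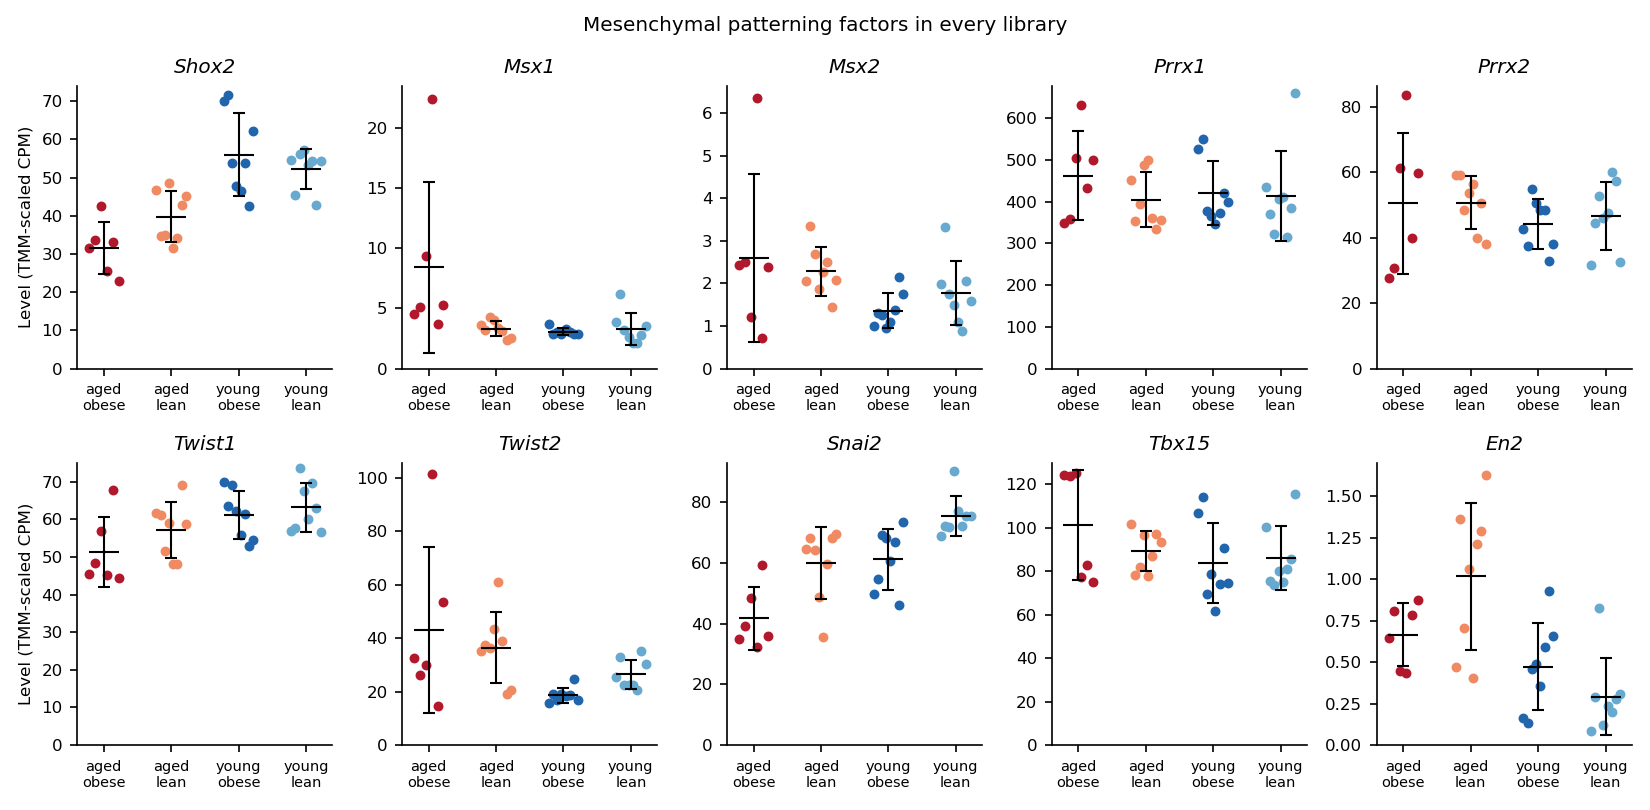
Level of each member in every library (y axis: CPM after TMM scaling, from 0), with groups on the x axis, 1 point per library and the group mean with its SD in black. Shox2 and Snai2 are lowest in aged obese libraries, and single aged obese libraries reach 22.4 CPM for Msx1 and 101 CPM for Twist2.

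Shox2 (ENSMUSG00000027833), a homeobox gene of the proximal limb and of subcutaneous fat, was the member whose change with age in obese mice held most firmly. In aged obese libraries it had 31.7, 33.7, 42.47, 25.6, 33.1 and 22.9 CPM (mice 10, 12, 14, 15, 16 and 17), against 42.50 CPM at the lowest, 53.8 at the median and 71.5 at the highest in young obese libraries. The groups did not overlap, by a margin of a few hundredths of a CPM between aged obese 14 and young obese 22. Shox2 fell by 0.83 on the log2 scale (SE 0.13, 95% interval -1.09 to -0.56, edgeR adjusted p = 0.00585), below the young obese median in 6 of 6 libraries, and the call held in 14 of 14 fits that each left out 1 library and in 12 of 12 other alternatives. Its 2 highest young obese values, 70.04 and 71.5 CPM, came from young obese 1 and 2. Without that pair the log2 change was -0.69 (adjusted p = 0.00727). Against young lean libraries, which ranged from 42.85 to 57.3 CPM around a median of 54.3, aged obese Shox2 fell by 0.73 (SE 0.13, adjusted p = 0.00403), again with no overlap. Aged lean libraries lay between, from 31.6 to 48.5 CPM with a median of 38.8. Their log2 change from young lean libraries was -0.39 ± 0.12 (SE, adjusted p = 0.85), and all 8 were below the young lean median. The group means were 31.6 ± 6.88 CPM in aged obese, 39.8 ± 6.65 in aged lean, 56.0 ± 10.9 in young obese and 52.3 ± 5.24 CPM in young lean libraries (SD, n = 6, 8, 8 and 8), so young obese was highest, then young lean, aged lean and aged obese. No neighbours in that order differed past the threshold: log2 0.10 ± 0.12 for young obese over young lean (adjusted p = 0.628), the aged lean value above, and -0.33 ± 0.13 for aged obese over aged lean (adjusted p = 0.273). In the reference annotation 153 exon bases of Shox2 overlap Rsrc1 on the opposite strand, and the strand setting of the counting was not given in the sources used here.

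Snai2 (ENSMUSG00000022676), the zinc finger repressor Slug of neural crest and migrating mesenchyme, was lowest in aged obese and highest in young lean libraries. Aged obese libraries had 35.04, 39.1, 48.5, 32.4, 59.3 and 35.9 CPM (mice 10, 12, 14, 15, 16 and 17), against 68.9 CPM at the lowest, 73.8 at the median and 90.1 at the highest in young lean libraries. No aged obese library reached the young lean range, and Snai2 fell by 0.85 (SE 0.14, 95% interval -1.13 to -0.58, adjusted p = 0.00267). Against young obese libraries, which spanned 46.2 to 73.4 CPM with a median of 63.7, it fell by 0.55 (SE 0.14, adjusted p = 0.0315), with aged obese 14 and 16 inside the young obese range. That second call ended in 7 of 14 fits that each left out 1 library (without aged obese 12, 15 or 17, or young obese 18, 19, 21 or 23), with adjusted p up to 0.116 (without aged obese 15), and at 0.0751 when only the compared groups were fitted. In the other comparisons the log2 change was -0.52 ± 0.14 for aged obese over aged lean (adjusted p = 0.0946), -0.30 ± 0.13 for young obese over young lean (adjusted p = 0.119) and -0.33 ± 0.13 for aged lean over young lean (adjusted p = 0.85). In these 3 comparisons every library of the first group lay below the other group's median, namely 6 of 6, 8 of 8 and 8 of 8. None of the 3 passed the threshold in edgeR. The first passed in DESeq2 (adjusted p = 0.032), and without aged obese 16 (0.012) or aged lean 16 (0.0104) in edgeR, as it did without both aged obese 15 and aged lean 16 (0.0366), a choice made after seeing the data. The second passed with only the compared groups in the fit (0.0432) and in limma voom (0.0258), and was -0.13 (adjusted p = 0.519) once GC content and exon length were corrected for by a library-wise offset, also chosen after seeing the data.

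Msx1 (ENSMUSG00000048450), a homeobox repressor that acts downstream of bone morphogenetic proteins in limb, skull and teeth, rose in aged obese libraries in all 3 comparisons that include them. Aged obese libraries had 4.52, 5.15, 9.34, 22.4, 3.74 and 5.28 CPM (mice 10, 12, 14, 15, 16 and 17), against 2.84 to 3.73 CPM with a median of 2.96 in young obese libraries. Aged obese 15 stood far above the others, aged obese 14 came second, and the lowest aged obese value exceeded the highest young obese value. The log2 change was 1.45 ± 0.29 (SE, 95% interval 0.88 to 2.02, adjusted p = 0.0103). Leaving out aged obese 15 gave 0.87 (adjusted p = 0.0735), and with only the compared groups in the fit the adjusted p was 0.0512. Against young lean libraries (2.10 to 6.17 CPM, median 3.02) Msx1 rose by 1.34 ± 0.29 (SE, adjusted p = 0.00836). Without aged obese 15 that change was 0.76 (adjusted p = 0.0454), and with only the compared groups in the fit its adjusted p was 0.0646. Against aged lean libraries (2.38 to 4.25 CPM, median 3.32) it rose by 1.34 ± 0.29 (SE, adjusted p = 0.044), higher than the aged lean median in 6 of 6 libraries. This was the least firm of the calls: it ended in 8 of 14 fits that left out 1 library (aged obese 14 or 15, or aged lean 11, 12, 13, 17, 19 or 20), with an adjusted p of up to 0.158 and a log2 change of 0.75 without aged obese 15. It also ended with no filter on low counts (0.0545), with only the compared groups (0.304) and without aged obese 15 and aged lean 16 (0.0913), a pair left out after seeing the data.

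Msx2 (ENSMUSG00000021469), the paralog of Msx1 and known from skull and tooth formation, shared the high value of aged obese 15 at 6.36 CPM. Its other aged obese values were 2.44, 2.50, 1.21, 0.717 and 2.39 CPM (mice 10, 12, 14, 16 and 17), against 0.948 to 2.14 CPM with a median of 1.29 in young obese libraries. The log2 change was 0.93 ± 0.33 (SE) with an adjusted p of 0.105. Leaving out aged obese 15 gave 0.44 (adjusted p = 0.55), leaving out aged obese 16, the library with the lowest level, gave an adjusted p of 0.0227, and limma voom gave 0.37 (adjusted p = 0.441). Per kilobase, Msx1 exceeded Msx2 in every library, by a median factor of 3.04 in aged obese, 1.63 in aged lean, 2.44 in young obese and 2.0 in young lean libraries.

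Twist2 (ENSMUSG00000007805), also called Dermo1 and known from dermis, rose with age in obese mice but was carried by few libraries. Aged obese libraries had 32.7, 26.03, 29.9, 101, 14.7 and 53.7 CPM (mice 10, 12, 14, 15, 16 and 17), against 15.5 to 24.8 CPM with a median of 18.5 in young obese libraries. Of the 6 aged obese libraries 5 lay above the whole young obese range, and aged obese 16 lay below it. The log2 change was 1.20 ± 0.28 (SE, 95% interval 0.66 to 1.75, adjusted p = 0.0223), and the call ended without aged obese 15 (log2 0.75, adjusted p = 0.127) and without aged obese 17 (0.0522). With only the compared groups in the fit the adjusted p was 0.0707. Aged lean libraries spanned 19.1 to 61.0 CPM (median 36.8), so aged obese over aged lean gave 0.24 ± 0.28 (adjusted p = 0.795). Young obese libraries were at 18.7 ± 2.81 CPM and young lean libraries at 26.4 ± 5.54 CPM (SD, n = 8 each), a log2 change of -0.50 ± 0.26 (SE, adjusted p = 0.206) with 7 of 8 young obese libraries below the young lean median. A fit of the young groups alone gave the same change with an SE of 0.13 (adjusted p = 0.0246).

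Twist1 (ENSMUSG00000035799), the other Twist gene and in human the gene of a craniosynostosis syndrome, was steady between mice and ran opposite to Twist2. It had 44.3 CPM at the lowest, 46.8 at the median and 67.7 at the highest in aged obese libraries, against 56.7, 61.5 and 73.5 CPM in young lean libraries. Of the aged obese libraries 5 of 6 lay below the young lean median, and aged obese 16, the lowest for Twist2, was the exception. The log2 change was -0.30 ± 0.10 (SE, adjusted p = 0.0538), just outside the threshold. It was -0.39 (adjusted p = 0.00681) without aged obese 16 and -0.19 (adjusted p = 0.174) under the GC and length correction described for Snai2. Against young obese libraries (52.9 to 70.04 CPM) the log2 change was -0.25 ± 0.10 (adjusted p = 0.161). Across the 30 libraries the log2 levels of Twist1 and Twist2 had a Pearson r of -0.68 and a Spearman rho of -0.61, with r = -0.57 without the 2 libraries farthest from the median and r = -0.67 after group means were taken out. Twist2 per kilobase was 0.323 of Twist1 at the median of aged obese libraries (0.111 to 1.15), against 0.157 in young obese libraries (0.114 to 0.241). The medians were 0.337 in aged lean and 0.209 in young lean libraries. Aged obese 15 was the library in which Twist2 exceeded Twist1 per kilobase. In CPM, Twist2 was also higher in aged obese 17 (53.7 against 44.3 CPM) and aged lean 16 (61.0 against 48.1 CPM).

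**Figure D2:**
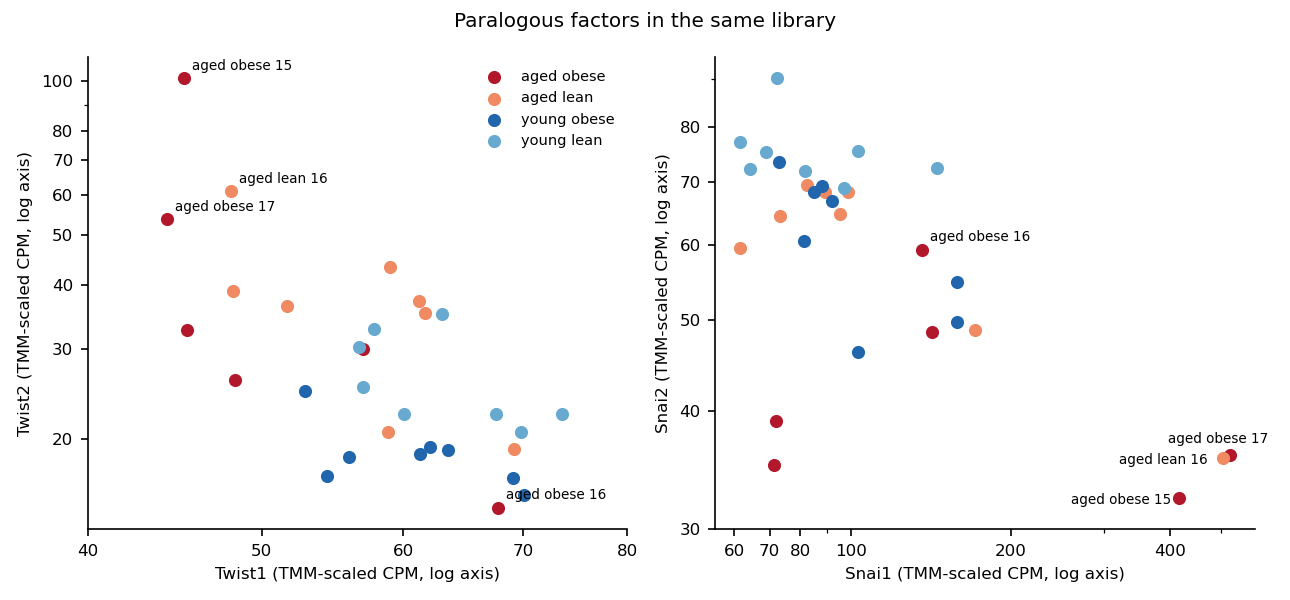
Twist2 against Twist1 (left) and Snai2 against Snai1 (right) in each of the 30 libraries, in CPM on log axes, coloured by group. Aged obese 15 and 17 and aged lean 16 combine high Twist2 (53.7 to 101 CPM) and high Snai1 (417 to 520 CPM) with low Twist1 and low Snai2, and aged obese 16 does not.

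The other abundant members changed less. Prrx1 (ENSMUSG00000026586), a homeobox gene of limb bud mesenchyme and adult fibroblasts, averaged 463 ± 106 CPM in aged obese, 405 ± 65.9 in aged lean, 420 ± 76.8 in young obese and 413 ± 108 CPM in young lean libraries (SD). Its paralog Prrx2 (ENSMUSG00000039476) averaged 50.6 ± 21.6, 50.7 ± 8.08, 44.2 ± 7.59 and 46.6 ± 10.4 CPM in the same groups, and Tbx15 (ENSMUSG00000027868), a T-box gene of subcutaneous fat and dermis, 101 ± 25.4, 89.3 ± 9.28, 83.8 ± 18.5 and 85.9 ± 14.8 CPM. None of the 3 passed in a comparison in edgeR, while limma voom called Prrx1 (log2 0.35, adjusted p = 0.0452) and Tbx15 (log2 0.41, adjusted p = 0.0276) for age in obese mice, beside 2870 of 14438 genes. For age in obese mice the 95% intervals of the log2 change were -0.16 to 0.44 for Prrx1, -0.18 to 0.57 for Prrx2 and from just below 0 to 0.55 for Tbx15. Prrx2 and Tbx15 split the aged obese libraries in opposite ways. Prrx2 had 27.7 and 30.8 CPM in mice 10 and 12 but 83.7 and 59.9 CPM in mice 15 and 17, whereas Tbx15 had 124, 124 and 125 CPM in mice 10, 12 and 14 but 77.5 and 75.0 CPM in mice 15 and 17. In young obese mice Tbx15 was likewise split, at 107 and 114 CPM in numbers 1 and 2 and between 61.7 and 90.7 CPM in the remaining 6.

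En2 (ENSMUSG00000039095), a homeobox gene best known from the midbrain and hindbrain border, was near the limit of detection, with 3 to 65 reads per library. Aged lean libraries had 0.401 to 1.62 CPM with a median of 1.14, against 0.0818 to 0.823 CPM with a median of 0.258 in young lean libraries. The ranges overlap through young lean 23, which alone exceeds 0.309 CPM in its group. The log2 change of 1.78 ± 0.39 (SE, 95% interval 1.02 to 2.53) had an unadjusted p of 7.46e-05 and an adjusted p of 0.269 in edgeR, with 8 of 8 aged lean libraries above the young lean median. DESeq2 gave an adjusted p of 0.0124, limma voom with quality weights 0.0066, and edgeR without young lean 23 gave 0.0276. Aged obese libraries (0.432 to 0.874 CPM, median 0.712) differed from young lean libraries by 1.16 ± 0.41 (SE, adjusted p = 0.0642), and all 6 exceeded the young lean median. That difference passed in DESeq2 (adjusted p = 0.0349), with the cell cycle covariate (0.0254) and without young lean 23 (0.0172). Its paralog En1, a gene of dorsal dermis, was far more abundant, at 21.3 ± 6.65 CPM in aged obese and 16.7 ± 2.14 CPM in young lean libraries (SD, n = 6 and 8), a log2 change of 0.35 ± 0.17 (SE, adjusted p = 0.169).

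With all libraries in the edgeR fit, 4 of the 10 members passed with age in obese mice (Msx1 and Twist2 higher, Shox2 and Snai2 lower), beside 3.07% of all genes (1.87% higher, 1.2% lower). The groups did not overlap for 2 members, Shox2 and Msx1, and for 1.18% of all genes. Aged obese against young lean gave 3 members (Msx1 higher, Shox2 and Snai2 lower), where 10.3% of all genes passed (5.62% higher, 4.65% lower), and no overlap for 2 members, Shox2 and Snai2, and for 1.04% of genes. Obesity in aged mice gave 1 member, Msx1 higher, where 0.222% of genes passed (0.166% higher, 0.0554% lower), and no overlap for 0 members and 0.187% of genes. The 3 comparisons share the aged obese libraries, so their members are not separate observations. The median absolute log2 change of the 10 was 0.52 for age in obese mice and 0.62 for aged obese against young lean, where the median over all genes was 0.18 and 0.22. With signs kept, the medians of the 10 were 0.24 and 0.20, since members moved in both directions, and those of all genes 0.01 and -0.01.

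Obesity in young mice and age in lean mice left all 10 below the threshold in edgeR. For obesity in young mice 8.83% of all genes passed (3.46% higher, 5.37% lower; 1.61% without overlap), and 1 member, Snai2, had an unadjusted p below 0.05, as did 4091 genes, 28.3%. The median absolute log2 change was 0.11 for the members and 0.22 for all genes. DESeq2 also called 0 members, beside 1810 of all genes, and limma voom called 3 (En2, Snai2 and Twist2), beside 4266 of 14438 genes. For age in lean mice 0.0% of genes passed (0.00693% without overlap), while 773 genes, 5.35%, had an unadjusted p below 0.05. Among them were 3 members, Shox2, Snai2 and En2, and DESeq2 and limma voom each called En2 alone. Whether the effect of obesity differs between ages was tested as an interaction, which 0 members and 0.00693% of genes passed in edgeR. At an unadjusted p below 0.05 it held 3 members and 1155 genes, 8.0%, and DESeq2 and limma voom called 0 members. Msx1 came closest, at 1.44 ± 0.40 (SE, adjusted p = 0.319), followed by Shox2 at -0.43 ± 0.18 and En2 at -1.30 ± 0.56 (adjusted p = 0.601 for both).

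**Figure D3:**
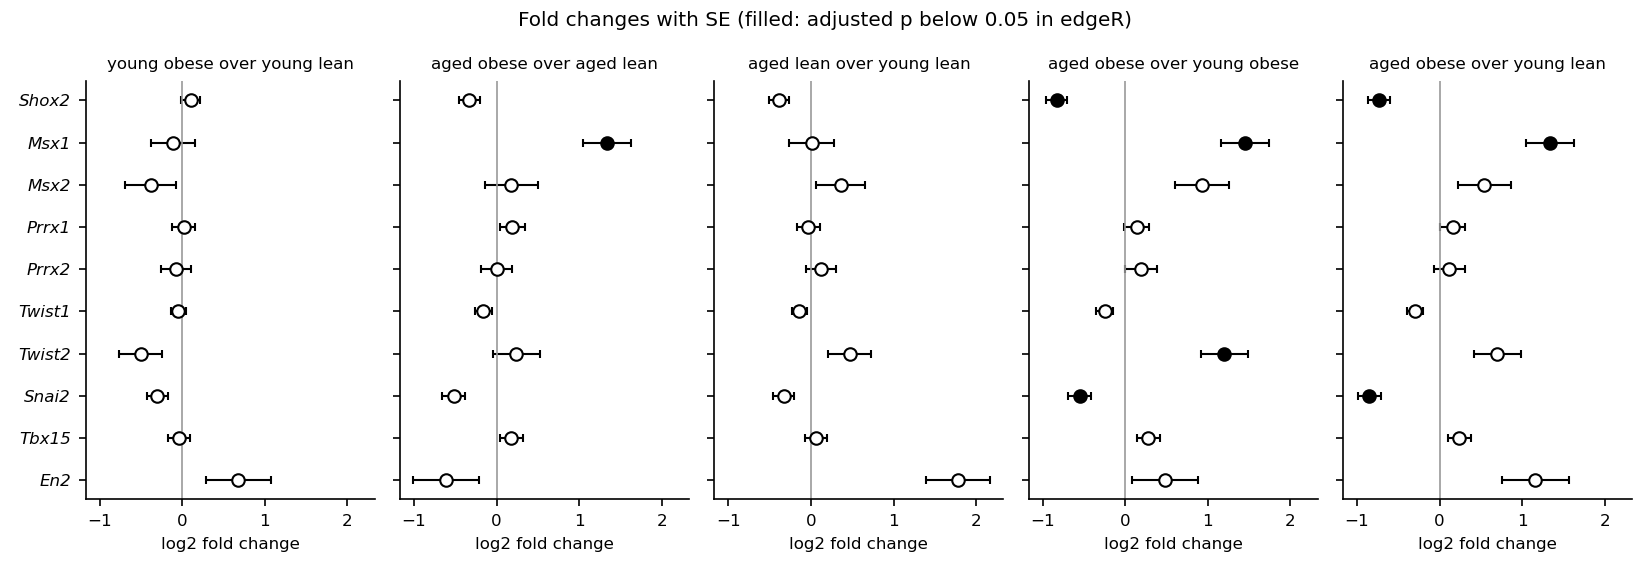
Log2 fold change (x axis) with its SE for each member in 5 comparisons, the first-named group over the second, and filled points for an adjusted p below 0.05 in edgeR. Filled points are 1 for aged obese over aged lean, 4 for aged obese over young obese and 3 for aged obese over young lean, and both comparisons without aged obese libraries have 0.

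**Figure D4:**
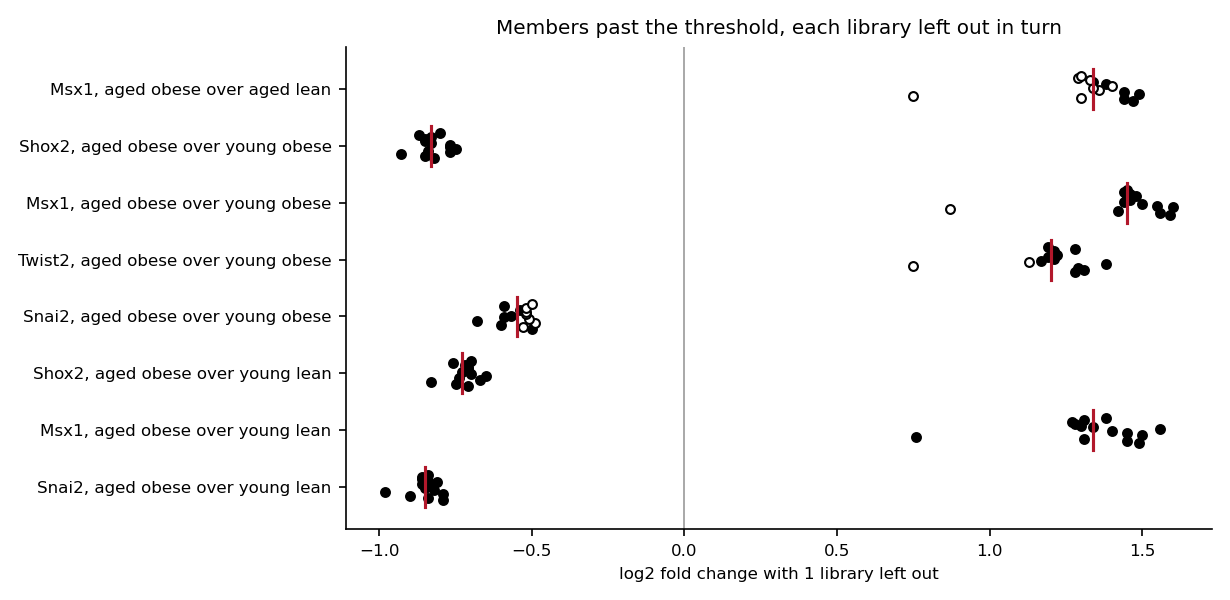
Log2 fold change (x axis) of each call when 1 of 14 libraries was left out, filled where the adjusted p stayed below 0.05, with the value from all libraries as a red line. Both Shox2 calls, and Snai2 and Msx1 for aged obese over young lean, stay filled throughout, and the isolated open points at 0.75, 0.87 and 0.75 are the fits of Msx1, Msx1 and Twist2 without aged obese 15.

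Aged obese 15 carried much of the spread. It held the highest level of 4 members among all 30 libraries (Msx1, Msx2, Prrx2 and Twist2) and the lowest of Snai2, while aged obese 17 held the lowest Shox2 and Twist1 and aged obese 16 the lowest Msx2 and Twist2. In aged obese 15 the 12 osteochondrogenic markers summed to 415 CPM, the highest of its group, followed by aged obese 14 (350) and 12 (314). The medians were 240 CPM in aged obese and 181 CPM in young obese libraries. Of these 12 markers 7 stayed below 1 CPM in every library, and of the 5 tested 0 passed with age in obese mice. Mural markers summed to 6590 to 12700 CPM (median 8650) in aged obese and 7380 to 10300 CPM (median 9500) in young obese libraries. Of the 12 mural markers tested, Cspg4 and Pdgfrb rose with age in obese mice, where 1.87% of all genes rose. Kcnj8, a pericyte gene, stayed below 1 CPM in every library. The part of these lists in the results was not tested, and in such bulk samples fewer cells of a type and less RNA per cell cannot be told apart. Cell cycle transcripts ranged from 289 to 2010 CPM in aged obese and from 295 to 2010 CPM in young obese libraries. With their level as a covariate all 4 members that passed with age in obese mice still passed in edgeR. Shox2 was at -0.85 (adjusted p = 0.00381) and Msx1 at 1.28 (adjusted p = 0.02). Closer to the threshold were Twist2 at 1 (adjusted p = 0.0422) and Snai2 at -0.49 (adjusted p = 0.0428).

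Related factors were examined as lists drawn up by family, with earlier results of these data known, so their counts are a description. For all lists below, the shares over all genes were 1.87% higher and 1.2% lower with age in obese mice. They were 5.62% higher and 4.65% lower for aged obese against young lean, and 0.166% higher and 0.0554% lower for obesity in aged mice. Of 41 other limb and body-wall patterning genes tested, 2 rose and 1 fell with age in obese mice. Lhx8, a LIM homeobox gene, rose by 1.54 ± 0.36 (SE, adjusted p = 0.0223) and Irx1, an Iroquois gene of limb and skin, fell by 0.98 (SE 0.28, adjusted p = 0.0467). Against young lean libraries 4 rose and 2 fell, among them Gbx2, a hindbrain patterning gene, at 1.45 ± 0.32 (adjusted p = 0.00857), and with obesity in aged mice 1 rose, again Gbx2. The median log2 change of this list was 0.02 in both comparisons, where it was 0.01 and -0.01 over all genes.

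Among 8 other T-box genes tested, Tbx2 and Tbx3 rose in both comparisons of aged obese with young libraries and 0 fell. Tbx3, a repressor active in limb and mammary gland, averaged 48.2 ± 48.2 CPM in aged obese and 13.1 ± 3.62 CPM in young obese libraries (SD), a log2 change of 1.88 ± 0.52 (SE, adjusted p = 0.0452). That mean came from aged obese 15 and 17 at 110 and 111 CPM, while the other 4 aged obese libraries had 11.6 to 23.3 CPM. Aged lean 16 stood at 96.2 CPM. Of 24 other mesenchymal factors 3 rose with age in obese mice and 5 against young lean libraries, and 0 fell in either. Foxs1, a forkhead gene of pericytes and neural crest, rose by 2.46 ± 0.43 (SE, adjusted p = 0.00585) with 160 CPM in aged obese 15, 93.0 in aged obese 17 and 12.3 in aged obese 16, against 10.1 to 16.1 CPM in young obese libraries. Foxc2, a forkhead gene of somite and fat, rose by 1.38 ± 0.35 (adjusted p = 0.0329) with age in obese mice. Aged obese 15, 17 and 14 had 147, 88.6 and 62.1 CPM. Aged obese 10, 12 and 16 had 32.9, 32.1 and 22.3 CPM, within the young obese range of 17.2 to 36.9 CPM. Runx2, the master gene of bone, rose by 1.15 ± 0.27 against young lean libraries (adjusted p = 0.0103). It spanned 22.7 CPM (aged obese 16) to 137 CPM (aged obese 15), against 21.8 to 44.2 CPM in young lean libraries. Aged lean 16 had 87.1 CPM of Foxc2 and 77.4 CPM of Runx2.

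Snai1, the paralog of Snai2, moved the other way. It had 71.5, 72.0, 142, 417, 136 and 520 CPM in aged obese libraries (mice 10, 12, 14, 15, 16 and 17), against 61.5 to 145 CPM with a median of 76.9 in young lean libraries. Aged obese 15 and 17 lay far above all young libraries and aged obese 10 and 12 among them. The log2 change was 1.38 ± 0.44 (SE, adjusted p = 0.04), and for aged obese over young obese it was 1.11 ± 0.43 (adjusted p = 0.152). Snai2 per kilobase was 0.312 of Snai1 at the median of aged obese libraries and 0.791 at that of young lean libraries. Zeb1 and Zeb2, the other repressors known to act with Snail factors, did not pass in any comparison (smallest adjusted p = 0.689 for Zeb1 and 0.0791 for Zeb2). Of 10 Twist partners and antagonists 2 rose in aged obese against young lean libraries, Bhlhe40 by 1.59 ± 0.38 (adjusted p = 0.0109) and Bhlhe41 by 1.56 ± 0.42 (adjusted p = 0.02), both repressors of the circadian clock. Of 16 cadherins and transition readouts 3 rose, Itga5 by 1.28 ± 0.23 (adjusted p = 0.0036), Jup by 0.67 ± 0.16 (adjusted p = 0.0102) and Vim by 0.49 ± 0.15 (adjusted p = 0.0344), and 0 fell.

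Members were also set against 10040 tested genes that averaged 4 CPM or more, by Pearson r of log2 CPM over the 30 libraries, which share groups and depth. The most like genes were Snrk for Shox2 (r = 0.85), Lhfp for Msx1 (0.89), Ubtd1 for Msx2 (0.83), Tiparp for Prrx1 (0.91), Igfbp7 for Prrx2 (0.84), Adm for Twist1 (0.86), Phlda3 for Twist2 (0.89), Arl14ep for Snai2 (0.91), Phlpp1 for Tbx15 (0.82) and Slc5a3 for En2 (0.57). Their Spearman rho lay between 0.53 (En2) and 0.90 (Prrx1). Without the 2 libraries farthest from the member's median, r for Msx1 and Lhfp was 0.73, since aged obese 14 and 15 were those libraries, while r for Prrx1 and Tiparp stayed at 0.91. Among the members themselves Msx2 and Twist2 were closest (r = 0.80, rho = 0.77, 0.68 without the 2 farthest libraries and 0.74 within groups), followed by Shox2 and Twist1 (r = 0.71, rho = 0.62, 0.59 and 0.57) and by Twist1 and Snai2 (r = 0.70, rho = 0.50, 0.59 and 0.54). Shox2 and Twist2 ran opposite (r = -0.69, rho = -0.58, -0.55 and -0.56). These values describe 30 libraries and carry no test.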

How the data were processed

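The deposited values are raw read counts, 1 row per Ensembl mouse gene, not normalized by the authors. The submitters' processing notes name STAR, HTSeq (0.7.0) and DESeq2 (1.12.4) without their roles. Genome build, annotation and strand setting are not given in the sources used here. The 5 lines without a gene stayed out of library sizes and tests. Per library, 3.94% to 8.75% of reads fell in no gene and 2.69% to 3.41% were ambiguous. Groups and mouse numbers came from the sample titles, and the labels name no batch. The members and lists were chosen with earlier results of these data known.

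Low genes were removed by filterByExpr in edgeR 4.0.16 under R 4.3.3, and the rest were TMM-scaled and fitted over all 30 libraries with a quasi-likelihood model of 4 group means, so that every comparison shared the spread. A gene was called at an adjusted p below 0.05 (Benjamini-Hochberg over all 14438 tested genes). Levels are TMM-scaled CPM. Correlations used log2 CPM with a prior count of 2. Levels per kilobase used exon lengths of the reference annotation, on hand with GC content for 99.0% of tested genes. At these depths En2, the lowest member, rests on 3 to 65 reads per library, and intervals of counting error are widest for it.

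Members are given in every comparison. Other genes named were up to 4 per list and comparison with the smallest adjusted p and a mean of at least 1 CPM, the sort markers, and the 3 genes most like each member. Zeb1, Zeb2, En1 and Rsrc1 fall outside that rule and were chosen after values were seen. Wt1, Tcf21, Upk3b, Krt19 and Kcnj8 also fall outside it and are named as genes of the marker lists. Alternatives were RLE and upper-quartile scaling, other filters, a cell cycle covariate, DESeq2 1.42.0, limma 3.58.1 (voom with quality weights), only the compared groups, sets of libraries left out and a replicate block. An offset for GC content and length, leaving out aged obese 15 and aged lean 16, and the block's libraries without the block were chosen after seeing the data. The edgeR fit was tested on simulated counts of independent libraries. These held no close sets of libraries, so they cannot show how such sets affect the p-values. Libraries are separate mice; p-values treat them as independent.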

Additional observations from a re-analysis of the deposited data

Results flagged for a closer look

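Within each group the highest and the lowest library of every member were compared with their nearest neighbour, in 40 sets of 6 or 8 libraries. In 7 sets 1 library stood further from the rest than chance gives in about 1 of 20 such sets.

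Aged obese 15 stood apart for Msx1, at 22.4 CPM where the next aged obese library had 9.34 CPM, and for Msx2, at 6.36 CPM where the next had 2.5 CPM. In young lean libraries Msx1 was at 6.17 CPM in mouse 7 (next 3.9 CPM), Prrx1 at 660 CPM in 1 library (next 435 CPM), Snai2 at 90.1 CPM in mouse 24 (next 77.1 CPM) and En2 at 0.823 CPM in mouse 23 (next 0.308 CPM). In young obese libraries Twist2 was at 24.8 CPM in mouse 22 (next 19.2 CPM).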

How the results depend on the processing

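The number of members past the threshold moved by more than 1.5 times as follows. For obesity in aged mice (1 member) it was 0 with no filter on low counts, 0 with only the compared groups and 2 with DESeq2 (Msx1 and Snai2). For aged obese against young lean (3) it was 5 with the cell cycle covariate, which added En2 and Twist1. For age in lean (0) it was 1 (En2) with DESeq2 and 1 with limma voom, for obesity in young (0) it was 3 with limma voom and 2 with only the compared groups (Snai2 and Twist2), and for age in obese (4) it was 1 (Shox2) with only the compared groups. With 1 library left out the count ran from 1 (without aged obese 15; 2 without aged obese 17) to 6 (without aged obese 16) for age in obese, from 3 to 5 (without aged obese 16) for aged obese against young lean, from 0 to 2 (without aged obese 16 or aged lean 16) for obesity in aged, from 0 to 1 (without young lean 23) for age in lean, and was 0 throughout for obesity in young and the interaction. The cause of these moves was not tested. Of 1730 fold changes of single members under these settings, 1621 kept their side of the threshold (those below it within 1 SE), 27 newly passed, 28 no longer passed, and 54 that never passed moved by more than 1 SE, some across 0. None that passed changed sign.

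The numbers shared between groups name individual mice. Same-numbered libraries had correlations of -0.517 to 0.39, none was its number's best partner, and the numbers were not taken as pairs. In the small set of libraries with shared numbers, obesity in aged gave 0 members with the replicate block and 0 without it, and Msx1 was at 0.99 and 1.4 (adjusted p = 1.0 in both).

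Over all genes the counts also depended on the setting. Calls for obesity in young (1275) were 371 with no filter, 2670 with the covariate, 4266 with limma voom, 143 without young obese 1 and 2, 483 with the offset, 201 to 2197 with 1 library left out and 0 in the small sets. For obesity in aged (32) they were 18, 169 and 114 in the first 3 of these, 187 with DESeq2, 0 with only the compared groups, 9 without aged obese 10 and 12, 69 with the offset, 151 without aged obese 15 and aged lean 16 and 9 to 435 with 1 library left out. For age in obese (443) they were 253 with no filter, 855 with DESeq2, 2870 with limma voom, 181 with only the compared groups, 2679 without aged obese 10 and 12, 147 without aged obese 15 and aged lean 16 and 43 to 1027 with 1 left out. For aged obese against young lean (1483) they were 2729 with the covariate, 695 with limma voom, 410 with only the compared groups, 968 without aged obese 15 and aged lean 16 and 642 to 2405 with 1 left out. Age in lean (0) gave 8 with DESeq2 and 6 with limma voom, and the interaction (1) gave 7 and 91. Upper-quartile scaling gave 376 higher and 1193 lower calls for obesity in young (499 and 776 with TMM), and 672 and 976 for aged obese against young lean (812 and 671). Counting error limits En2 most.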

Other observations

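The genes of the 2 positive sort markers, Ly6a (Sca-1) and Cd34, did not pass in any comparison in edgeR, with adjusted p of at least 0.303 and 0.655. Ly6a was at 736 ± 368 CPM in aged obese and 926 ± 210 CPM in young lean libraries (SD, n = 6 and 8), with 176 CPM in aged obese 10. Of 18 adipose progenitor markers 5 rose in aged obese against young lean libraries and 0 fell, beside 5.62% and 4.65% of all genes. They include Cd44, the hyaluronan receptor, at 1.36 ± 0.28 (SE, adjusted p = 0.00661) and Icam1, an adhesion molecule of committed preadipocytes, at 1.19 ± 0.25 (adjusted p = 0.00668).

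Among osteochondrogenic markers 2 of 5 tested rose with obesity in young mice, where no member passed and 3.46% of all genes rose. The median log2 change of the 5 was -0.14, where it was -0.02 over all genes. The tested markers other than these 2 thus lay at or below -0.14. Alpl, alkaline phosphatase, rose by 1.79 ± 0.41 (SE, adjusted p = 0.0151) and Sp7, the osteoblast factor osterix, by 1.23 ± 0.30 (adjusted p = 0.0201). Heyl, a Notch target, was at 0.0428 to 135 CPM in aged obese libraries and at 0.0729 CPM or below in young obese libraries.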
